A study of Mus musculus with 10 samples.

Results

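The 9 genes described here encode the first steps of insulin signalling in skeletal muscle: the receptor Insr, its substrates Irs1 and Irs2, the subunits Pik3r1 and Pik3ca of phosphoinositide 3-kinase (PI3K), the kinases Pdpk1, Akt1 and Akt2, and the phosphatase Ptpn1. They were taken by symbol from a list and not by a cutoff on values, though earlier results of these data were known. All 9 were found among the 15883 genes of the count table. All 9 also passed the filter on low counts, which kept 13338 genes. The RNA came from biceps femoris, in the hind leg, of C57BL/6J males. They were 5 weeks old, fed normal chow and then fasted for 16 hours. One group was wild type and the other transgenic for Zfp407, a zinc finger protein gene, with 5 mice and 5 libraries in each. The title of the series ties overexpression of the protein to glucose homeostasis, and the comparison here asks whether transcripts of the insulin pathway differ between the genotypes. No source used here gives the promoter of the transgene, the number of founder lines or whether the groups were littermates. Table columns show genotype without an animal label, so a library goes by its genotype and column number.

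Insulin binds its receptor, a tyrosine kinase, which phosphorylates the substrate proteins IRS1 and IRS2. These recruit PI3K, whose lipid product brings PDK1 and AKT to the membrane, and AKT2 is the AKT form best known for glucose uptake in muscle. PTP1B, the product of Ptpn1, removes phosphate from the receptor, and FOXO factors, which AKT keeps out of the nucleus, raise Irs2 and Insr transcription in fasting. The signal itself is carried by phosphorylation, which transcript counts do not measure.

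Sequence before the transcription start is shown for the receptor substrates, because Irs1 and Irs2 share an arrangement of motifs there and differ widely in level and spread in these libraries. The sequences are RefSeq promoters of GRCm38.p6, all read on the minus strand. They cover the 250 bases before the start of Irs1 (chr1:82291440-82291689) and of Irs2 (chr8:11008930-11009179), and, for Irs4, a stretch of 200 bases that ends 50 bases before the start (chrX:141725268-141725467). Irs4 is a further substrate gene, whose transcript was not analysed here. Capitals mark 4 motifs searched on both strands: the FOXO motif GTAAACA, the insulin response element TGTTTTG, the E-box CACGTG and the GC box GGGCGG.
Irs1: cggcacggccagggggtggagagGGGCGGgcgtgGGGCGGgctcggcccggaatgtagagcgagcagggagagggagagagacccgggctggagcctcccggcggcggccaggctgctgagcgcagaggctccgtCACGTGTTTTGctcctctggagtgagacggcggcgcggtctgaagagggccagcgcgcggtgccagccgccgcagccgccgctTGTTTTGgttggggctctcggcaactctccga
Irs2: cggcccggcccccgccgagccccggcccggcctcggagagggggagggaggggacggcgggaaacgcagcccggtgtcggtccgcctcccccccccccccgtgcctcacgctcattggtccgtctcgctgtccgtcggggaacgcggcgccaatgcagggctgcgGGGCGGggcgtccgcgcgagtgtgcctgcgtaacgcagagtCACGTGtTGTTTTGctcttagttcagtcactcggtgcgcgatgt
Irs4: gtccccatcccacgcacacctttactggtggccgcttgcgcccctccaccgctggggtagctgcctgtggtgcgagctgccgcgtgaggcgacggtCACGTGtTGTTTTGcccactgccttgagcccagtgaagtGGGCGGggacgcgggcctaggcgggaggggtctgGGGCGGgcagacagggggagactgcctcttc

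In Irs1 the E-box and a copy of TGTTTTG share 2 bases, and in Irs2 and Irs4 a single base lies between them. The pair begins 115 bases before the RefSeq start in Irs1, 44 in Irs2 and 154 in Irs4. GENCODE, the annotation used for gene positions below, starts Irs1 at 82291416 and Irs2 at 11008458. Distances to those 2 starts are longer. Among 32851 RefSeq windows of 250 bases, 6.02% hold CACGTG and 5.56% hold TGTTTTG. Only 9 windows, of 9 genes, hold the 2 with at most 10 bases between them in this order, and 3 of these genes are Irs1, Irs2 and Irs4. This spacing was noticed in the printed sequences and then counted, so it is a description. Of the 14 windows of 8 of the genes (none was matched for Insr), 8 hold the GC box, which 32.7% of all windows hold. These 8 windows are 48.8% to 78.4% G and C, beside a median of 52.4% over all windows. Base composition was not accounted for, and Akt1, Akt2, Pik3r1 and Pdpk1 have more than 1 window. The FOXO motif GTAAACA is in 1 window, of Akt1, and in 3.17% of all windows. A window without GTAAACA is not shown to lack a FOXO site. No measure of binding was made in these samples.

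None of the 9 genes passed an adjusted p of 0.05 in edgeR's quasi-likelihood test over all genes, in either direction. DESeq2, run without the filter, also called none of the 9, where it called 7.74% of 15882 genes. Limma-voom called none of them either, and 7.77% of 13338 genes. In edgeR 5.33% of all 13338 genes tested were called, 4.28% as higher and 1.05% as lower in the transgenic group. The log2 fold changes of the 9 genes, transgenic against wild type, ran from -0.26 for Pik3ca to 0.40 for Ptpn1, with a median of -0.02 beside 0.003 over all genes. At an unadjusted p under 0.05 there was 1 gene, Ptpn1, where 18.1% of all genes tested reached that level. Wild-type and transgenic libraries were fully separate in 1 gene, Pik3ca, and in 8.04% of all genes. Missing the threshold does not show equal levels, so each gene is given below with its 95% interval.

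**Figure D1:**
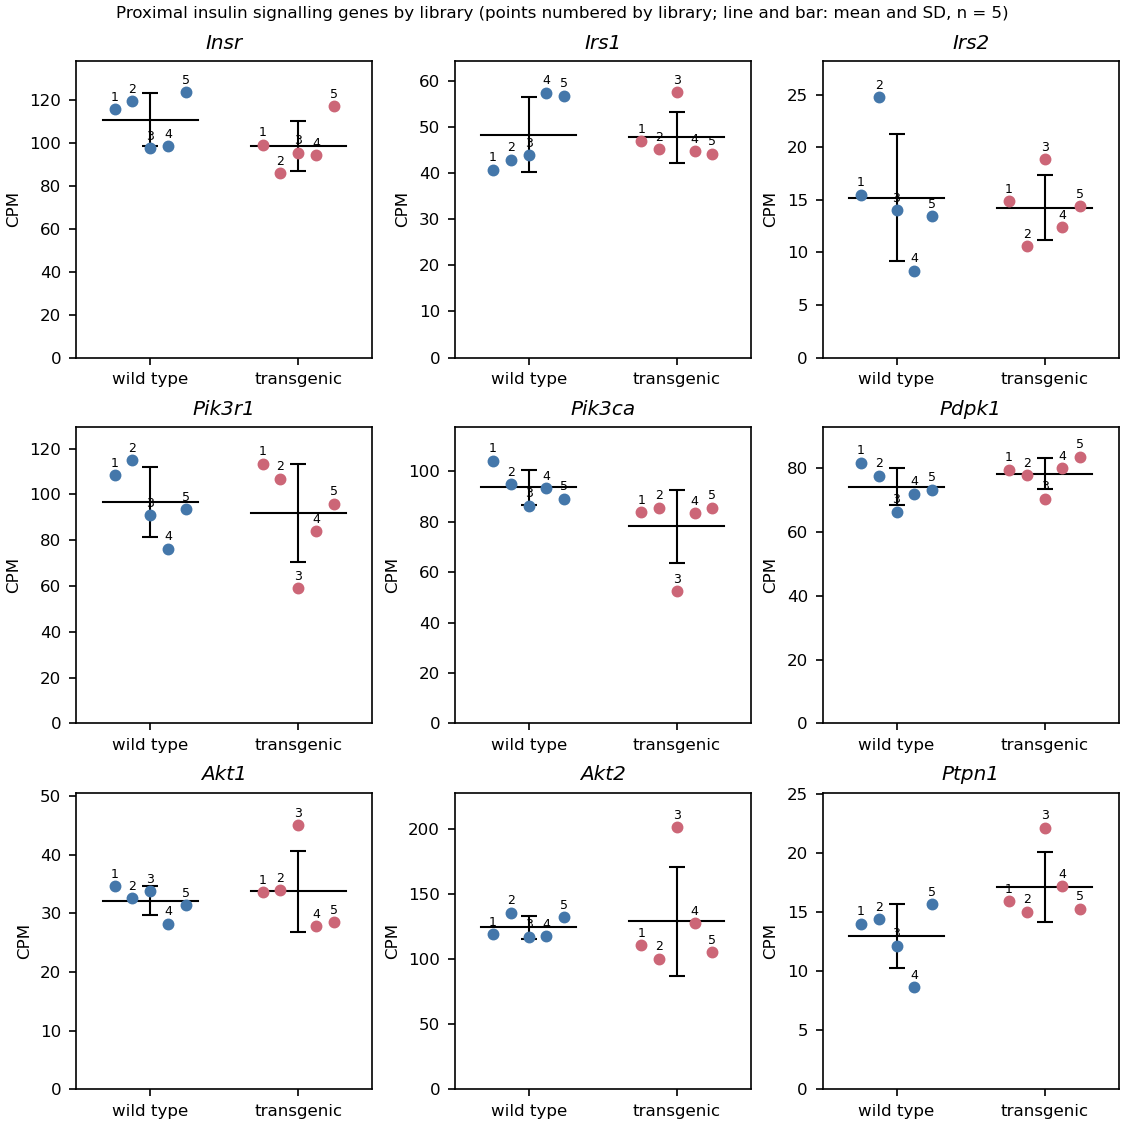
Level (CPM, counts scaled to the size of the library) of the 9 genes in each library, with wild type in blue and transgenic in red; points are numbered by library, and the line and bar give the mean and SD of 5 libraries. Transgenic library 3 is the highest point of all 10 for Irs1, Akt1, Akt2 and Ptpn1 and the lowest for Pik3r1 and Pik3ca.

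CPM here divides each count by a library size that was adjusted with TMM, a scaling that sets aside genes with extreme ratios. Total counts ran from 13530367 to 19047834 per library, and the 9 genes had 127 to 3187 counts in each. Zfp407 stood at 21.0 to 25.7 CPM in the wild-type libraries and at 317 to 616 CPM in the transgenic ones. Of 12 skeletal muscle markers none passed the test, and their sum lay between 15.1% and 23.9% of a wild-type library and between 18.1% and 21.2% of a transgenic one. Marker shares here and below are of total counts, which include the very abundant Lars2, Gm15564 and Gm15662. Wild-type library 1, with the lowest muscle share, had the highest share of those 3 genes, 33.9%. Transgenic library 3 stood apart from the rest: it held the highest or lowest value of all 10 libraries in 51.7% of the genes tested, where the other libraries did so in 10.7% to 23.9%. Of the 9 genes it was the extreme in 6, so the values of these 6 are also given without it. The bulk tissue holds several cell types, and fewer cells of a type and less RNA per cell cannot be told apart.

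On the scale of CPM per kilobase of exon, Akt2 was the most abundant in wild type, with 17.5 ± 1.24 (SD, n = 5), and its libraries lay above those of every other gene. Pik3ca, at 10.3 ± 0.750, and Pik3r1, at 9.60 ± 1.51, followed, with Insr at 8.07 ± 0.883, Akt1 at 7.84 ± 0.610 and Pdpk1 at 6.79 ± 0.535 CPM per kilobase (SD, n = 5 each). Neighbours in that run from Pik3ca to Irs1 overlapped in their ranges. Irs1, at 5.29 ± 0.882, was above Irs2, at 2.41 ± 0.953, and Ptpn1, at 2.35 ± 0.493 CPM per kilobase (SD, n = 5 each), without overlap between Irs1 and Irs2. In the transgenic group Akt2 again came first and Irs2 and Ptpn1 last, with Ptpn1 at 3.10 ± 0.529 and Irs2 at 2.25 ± 0.489 CPM per kilobase (SD, n = 5 each). Exon length here is the union of all annotated exons, so a gene whose muscle form is shorter is understated.

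Insr encodes the insulin receptor and lies on chromosome 8 from 3122061 to 3279617 (GRCm38; coordinates here are of the whole gene). Its level was 116, 119, 97.5, 98.6 and 124 CPM in wild-type libraries 1 to 5 and 99.3, 85.9, 95.6, 94.5 and 117 CPM in transgenic libraries 1 to 5. The groups overlapped, with 4 of the 5 transgenic libraries below the mean of wild type, 111 ± 12.1 CPM (SD, n = 5). On the log2 scale the difference was -0.17 ± 0.11 (SE; edgeR's adjusted p = 0.480), with a 95% interval from -0.42 to 0.08, that is, from 25.2% lower to 5.38% higher. Without transgenic library 3 the value was -0.16, since that library sat inside the range of the others for this gene.

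Irs1, on chromosome 1 from 82233101 to 82291416, encodes the main receptor substrate of muscle. It stood at 40.8, 43.0, 44.0, 57.5 and 56.8 CPM in the wild-type libraries and at 47.0, 45.2, 57.6, 44.9 and 44.3 CPM in the transgenic libraries, each in order from 1 to 5. Wild-type libraries 4 and 5 and transgenic library 3 were high, and the other 7 lay between 40.8 and 47.0 CPM. The log2 fold change was -0.02 ± 0.13 (SE; edgeR's adjusted p = 0.958; 95% interval -0.30 to 0.26), and without transgenic library 3 it was -0.10 ± 0.11 (SE; edgeR's adjusted p = 0.677).

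Irs2, the other widely expressed substrate gene, lies on chromosome 8 from 10984681 to 11008458. Its wild-type values were 15.5, 24.8, 14.04, 8.26 and 13.4 CPM and its transgenic values 14.9, 10.6, 18.9, 12.4 and 14.4 CPM, in library order. The wild-type group alone spanned the full range of the gene, from library 4 at the bottom to library 2 at the top. Irs2 had the largest spread of the 9 genes, with a biological coefficient of variation (the square root of edgeR's dispersion) of 0.266, where the median over all genes was 0.187 and Pdpk1, the steadiest of the 9, had 0.128. Its interval was the widest for the same reason: the log2 fold change was -0.09 ± 0.24 (SE; edgeR's adjusted p = 0.892; 95% interval -0.61 to 0.43), which spans a fall of 34.4% and a rise of 34.3%. Without transgenic library 3, the highest transgenic library for this gene, it was -0.21 ± 0.25 (SE; edgeR's adjusted p = 0.674).

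The balance of the 2 substrates followed Irs2. As a ratio of counts per kilobase within each library, Irs2 to Irs1 was 0.550, 0.836, 0.462, 0.208 and 0.342 in wild type and 0.459, 0.340, 0.474, 0.401 and 0.471 in the transgenic group. Irs2 was thus below Irs1 in every library. The mean log2 ratio was -1.21 ± 0.752 for wild type against -1.23 ± 0.206 for the transgenic mice (SD, n = 5 each), a difference of -0.02 (exact two-sided permutation test, p = 0.960, adjusted p = 0.960 over 3 ratios).

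Pik3r1 encodes the regulatory subunit p85 alpha, which docks on the substrates, and lies on chromosome 13 from 101680563 to 101768217. It had 108, 115, 90.9, 76.3 and 93.4 CPM in wild type and 113, 107, 58.9, 83.9 and 95.9 CPM in the transgenic group. Transgenic library 3 was the lowest of all 10, and the other transgenic libraries lay inside the wild-type range. The log2 fold change was -0.08 ± 0.17 (SE; edgeR's adjusted p = 0.871; 95% interval -0.44 to 0.29), and it was 0.05 without transgenic library 3.

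Pik3ca, which encodes the catalytic subunit p110 alpha, lies on chromosome 3 from 32397671 to 32468486 and was the only one of the 9 whose groups did not overlap. It had 104, 94.96, 86.5, 93.4 and 89.2 CPM in wild type and 83.9, 85.6, 52.3, 83.4 and 85.6 CPM in the transgenic group. The gap between the groups was narrow, from 85.6 to 86.5 CPM, and transgenic library 3 lay far below the other 4, which were within 83.4 to 85.6 CPM. The log2 fold change was -0.26 ± 0.14 (SE; edgeR's adjusted p = 0.342; 95% interval -0.55 to 0.03). Without transgenic library 3 it was -0.15 ± 0.07 (SE; edgeR's adjusted p = 0.256), a smaller difference with a smaller error.

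Both subunits were low together in transgenic library 3, at 0.589 (Pik3r1) and 0.618 (Pik3ca) of the mean of the other transgenic libraries. The ratio of Pik3r1 to Pik3ca per kilobase therefore did not single that library out, at 1.02 beside 0.907 to 1.22 in the other transgenic libraries and 0.736 to 1.09 in wild type. The mean log2 ratio was -0.11 ± 0.205 for wild type against 0.07 ± 0.163 for the transgenic mice (SD, n = 5 each), a difference of 0.18 (exact two-sided permutation test, p = 0.167, adjusted p = 0.500 over 3 ratios).

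Pdpk1 encodes PDK1, the kinase that phosphorylates the activation loop of AKT, and lies on chromosome 17 from 24073680 to 24150924. It had 81.8, 77.7, 66.4, 72.1 and 73.3 CPM in wild type and 79.6, 77.9, 70.5, 80.1 and 83.6 CPM in the transgenic group. The ranges of the groups overlapped over most of their span. As the steadiest of the 9 it also had the narrowest interval: the log2 fold change was 0.08 ± 0.10 (SE; edgeR's adjusted p = 0.742), with a 95% interval from 8.46% lower to 21.7% higher. Without wild-type library 3, the lowest of the 10, the value was 0.0045.

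Akt1, on chromosome 12 from 112653821 to 112674884, encodes the AKT form linked mostly to growth. It had 34.7, 32.5, 33.8, 28.2 and 31.4 CPM in wild type and 33.5, 33.9, 45, 27.7 and 28.4 CPM in the transgenic group. Akt2 lies on chromosome 7 from 27591552 to 27640826 and had 119, 136, 117, 118 and 132 CPM in wild type and 111, 100.4, 202, 128 and 106 CPM in the transgenic group. In both genes transgenic library 3 was the highest of the 10. For Akt2 it was 1.82 times the mean of the other transgenic libraries, and 3 of these lay below every wild-type library.

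The difference between the groups was small for both kinases. On the log2 scale it was 0.07 ± 0.14 for Akt1 (SE; edgeR's adjusted p = 0.851; 95% interval -0.22 to 0.36) and 0.05 ± 0.17 for Akt2 (SE; edgeR's adjusted p = 0.914; 95% interval -0.32 to 0.43). Without transgenic library 3 the signs turned, to -0.06 ± 0.09 for Akt1 and -0.17 ± 0.09 for Akt2 (SE; edgeR's adjusted p = 0.777 and 0.302). Akt2 exceeded Akt1 per kilobase in every library, by 1.98 to 2.42 times in wild type and by 1.70 to 2.64 times in the transgenic group. The mean log2 ratio differed by -0.05 (exact two-sided permutation test, p = 0.754, adjusted p = 0.960 over 3 ratios).

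Ptpn1, on chromosome 2 from 167932057 to 167979385, had the largest difference of the 9. Its level was 14.02, 14.4, 12.2, 8.65 and 15.7 CPM in wild type and 16.0, 15.0, 22.2, 17.2 and 15.3 CPM in the transgenic group. Of the transgenic libraries, 3 lay above every wild-type library, and libraries 2 and 5 lay under wild-type library 5. The log2 fold change was 0.40 ± 0.16 (SE; unadjusted p = 0.0273, edgeR adjusted p = 0.203), with a 95% interval from 0.05 to 0.75. Without transgenic library 3, its highest library, the value was 0.29, and without wild-type library 4, its lowest, it was 0.26 (edgeR adjusted p = 0.266 and 0.410).

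**Figure D2:**
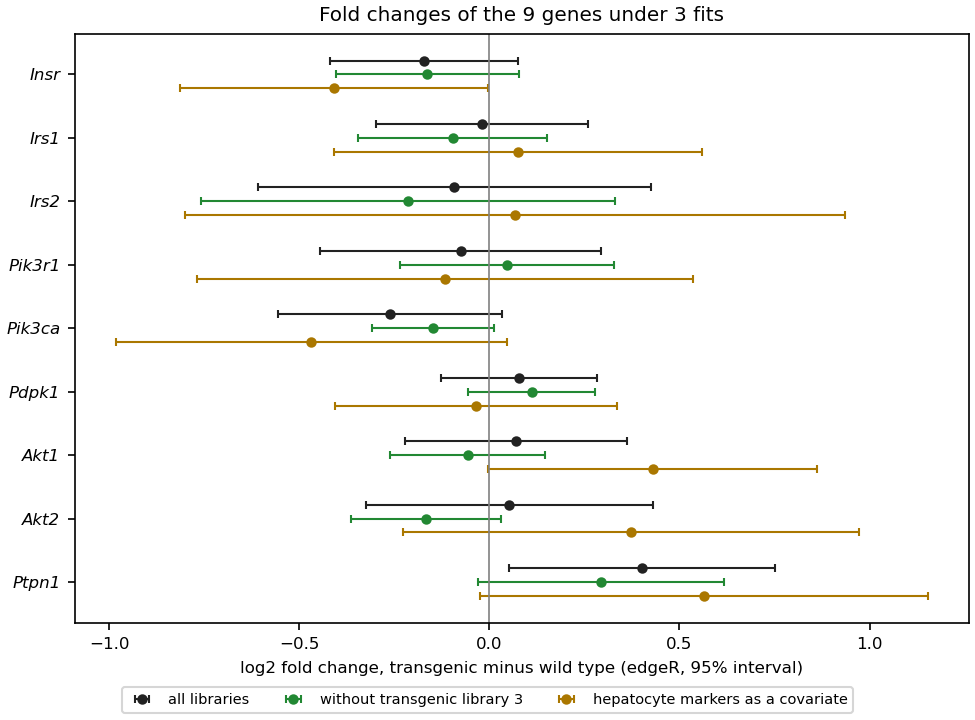
Log2 fold change of each of the 9 genes, transgenic minus wild type, with 95% intervals from edgeR, for all libraries (black), without transgenic library 3 (green) and with hepatocyte markers as a covariate (ochre). With all libraries the interval of Ptpn1 alone leaves out 0, from 0.05 to 0.75, and Akt1 and Akt2 lie to the left of 0 without transgenic library 3.

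Library totals, alone of the scalings, turned the sign of some of these differences. With DESeq2 size factors or upper-quartile scaling none of the 9 genes changed sign. With library totals in place of TMM the median of all genes moved from 0.003 to 0.27, and Insr, Irs1, Irs2, Pik3r1 and Pik3ca had log2 fold changes above 0. Relative to that median their values were -0.17, -0.03, -0.09, -0.06 and -0.25, in that order, close to those with TMM. On that scaling 15.1% of all genes were called, 97.9% of them as higher, and Pdpk1 and Ptpn1 passed the threshold (edgeR adjusted p = 0.0441 and 0.0133), but relative to the median of all genes their values were 0.08 and 0.40, close to those with TMM. Lars2, Gm15564 and Gm15662, whose rows hold very many counts, summed to 14.3% to 33.9% of a wild-type library and 9.62% to 17.3% of a transgenic one. The authors' deposited table gives log2 fold changes from -0.27 for Pik3ca to 0.40 for Ptpn1, with adjusted p of 0.282 and 0.236, and no adjusted p under 0.05 among the 9.

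The 9 genes did not vary as a block within the groups. Each value was set against the mean of its own group on the log2 CPM scale, and the 36 pairs of genes were compared over the 10 libraries. Where libraries were left out the values were not centred anew, so r without them also holds any shift between the groups. The highest correlation was between Pik3r1 and Pik3ca (Pearson r = 0.81, permutation p = 0.00787; Spearman rho = 0.61, permutation p = 0.0661). It was 0.53 without the 2 libraries farthest from the median of Pik3r1, so part of it rests on those. The lowest was between Pik3ca and Akt2 (Pearson r = -0.89, permutation p = 0.00679; Spearman rho = -0.56, permutation p = 0.0958). Without the 2 farthest libraries it was -0.69, but how much of that lay within the groups was not tested. Pik3ca and Pdpk1 had r = 0.77 (permutation p = 0.00279) and rho = 0.85 (permutation p = 0.00291), and r = 0.56 without the 2 farthest libraries. Adjusted over the 36 pairs, no p passed 0.05, and the smallest were 0.0944 for r and 0.0524 for rho.

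Some of these correlations moved without transgenic library 3, though the values left were still set against group means that include it. Akt1 and Akt2 had r = 0.67 with it (permutation p = 0.0551) and 0.01 without it, with rho = 0.21 (permutation p = 0.562) and r = 0.21 without the 2 farthest libraries. Against the mean of its group it was higher by 0.69 for Akt2, 0.44 for Akt1, 0.43 for Irs2, 0.38 for Ptpn1 and 0.28 for Irs1 on the log2 scale. It was at -0.60 for Pik3r1, -0.55 for Pik3ca and -0.15 for Pdpk1. In wild type the far libraries were different ones: library 4 was at -0.78 for Irs2 and -0.55 for Ptpn1, and library 2 at 0.79 for Irs2.

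**Figure D3:**
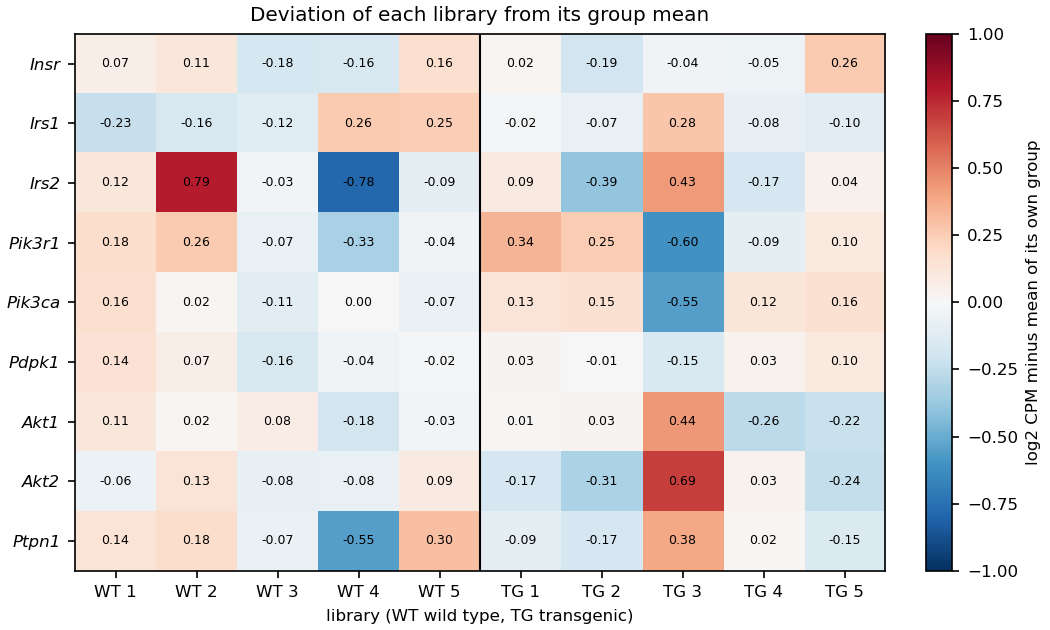
Log2 CPM of each gene in each library minus the mean of its own group, from blue (below) to red (above). The column of transgenic library 3 runs from -0.60 for Pik3r1 to 0.69 for Akt2, and the row of Irs2 holds the largest values of the wild-type libraries, 0.79 and -0.78.

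Genes outside the set followed the same libraries. By the rule of highest Pearson r over the 10 libraries among 8215 genes with a mean count of at least 100, the genes most like Akt2 were Myo1c (0.98), Ctsd (0.98) and Akt1s1 (0.98), and those most like Pik3ca were Camsap2, Slc25a46 and Uba3 (each 0.98). Akt1s1 encodes an AKT substrate that restrains mTORC1, and it had 57.3 CPM in transgenic library 3 and 23.1 to 32.4 CPM in the other 9. Slc2a4, the gene of the glucose transporter GLUT4, had 378 CPM in that library and 181 to 236 CPM in the others. For the receptor the nearest were Uggt1 (0.94), Pdcd6ip (0.93) and Pdk4 (0.92). Irs1 was nearest to Rhobtb2, Cdh4 and Pomt1, Irs2 to Rnf181, Rnps1 and Zyx, and Pik3r1 to Atl3, AW549877 and Rnf13. The nearest to Pdpk1 were Adgrf5, Taok3 and Ermp1, to Akt1 Mfge8, Esyt1 and Prelid1, and to Ptpn1 Mvp, Gna11 and Rhbdf2, with r from 0.92 to 0.97 for these 18. They were picked as the highest of 8215 values for each gene and are named as a description only.

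Among the other genes of the pathway 5 passed the threshold. Of 121 genes tested in 7 lists (receptor and adaptor genes, paralogs of the kinases, phosphatases and inhibitors, mTORC2 subunits, AKT substrates, FOXO target genes and insulin-induced genes), 4 rose and 1 fell, which is 4.13% beside 5.33% of all genes. Enpp1, Sgk3, Prr5 and Tbc1d1 rose and Tbc1d4 fell. The median log2 fold change of the 121 genes was -0.06.

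**Figure D4:**
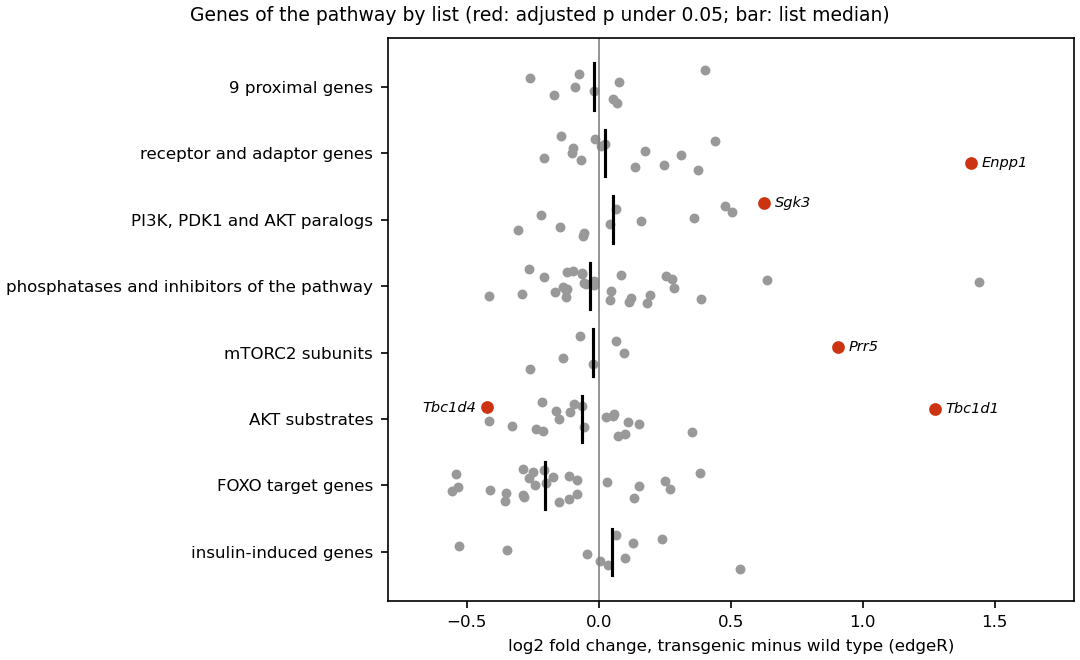
Log2 fold change, transgenic minus wild type, of each gene tested in the 9-gene set and the 7 lists; red points passed an adjusted p of 0.05 and the black bar is the median of the list. All 9 proximal genes are grey, 5 genes of the other lists are red, and the FOXO target genes have the lowest median, -0.20.

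Enpp1, a membrane phosphodiesterase known to bind the insulin receptor and restrain it, rose among the receptor and adaptor genes. It had 4.57, 4.66, 7.22, 4.03 and 5.70 CPM in wild type and 13.6, 10.9, 14.9, 14.7 and 16.0 CPM in the transgenic group. All 5 transgenic libraries lay above all wild-type libraries. Its log2 fold change was 1.41 ± 0.17 (SE; edgeR's adjusted p = 0.000366), and it stayed past the threshold with each library left out in turn (1.30 to 1.53, edgeR adjusted p from 0.000295 to 0.00252). Of the 15 genes of its list the other 14 did not pass. Igf1r, the receptor of insulin-like growth factor, had 16.9 and 15.8 CPM as group means, and Grb10, an adaptor that restrains the receptor, 75.0 and 65.0 CPM. Irs3, another substrate gene, had group means of 1.098 and 1.093 CPM.

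Of the 12 paralogs of the kinases and PI3K subunits, Sgk3 rose and none fell. Sgk3 encodes a kinase related to AKT and had 10.2, 10.3, 8.88, 11.1 and 8.23 CPM in wild type and 13.0, 16.0, 12.2, 16.8 and 17.3 CPM in the transgenic group, again without overlap. Its log2 fold change was 0.63 ± 0.13 (SE; edgeR's adjusted p = 0.0139), and its adjusted p was 0.0592 without wild-type library 3. Pik3r3 differed by 0.50 ± 0.19 on the log2 scale (SE; edgeR's adjusted p = 0.158).

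In the list of 7 mTORC2 subunits, the complex that phosphorylates AKT in its tail, Prr5 rose and none fell. Prr5 had 2.76, 1.69, 2.05, 1.82 and 1.95 CPM in wild type and 3.45, 3.45, 5.57, 3.69 and 3.15 CPM in the transgenic group, for a log2 difference of 0.91 ± 0.21 (SE; edgeR's adjusted p = 0.0217). It is a gene of low level, and its adjusted p was up to 0.0745 without wild-type library 2, 3, 4 or 5. The subunits that define the complex, Rictor and Mapkap1, had log2 fold changes of -0.07 and -0.02.

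Of 21 AKT substrates Tbc1d1 rose and Tbc1d4 fell. Both encode GTPase-activating proteins that hold back transport of GLUT4 until phosphorylated. Tbc1d1 had 55.0, 36.3, 67.0, 50.4 and 77.0 CPM in wild type and 83.3, 98.5, 222, 137 and 150.3 CPM in the transgenic group. Tbc1d4 had 45.5, 48.5, 45.3, 48.2 and 45.3 CPM in wild type and 40.7, 34.6, 37.3, 30.8 and 30.2 CPM in the transgenic group. Neither gene overlapped between the groups. On the log2 scale Tbc1d1 was higher by 1.27 ± 0.26 and Tbc1d4 fell by 0.42 ± 0.11 (SE; edgeR's adjusted p = 0.0120 and 0.0325). Tbc1d4 kept its call only without transgenic library 1 or 3 and lost it without any other 1 library (edgeR adjusted p up to 0.0938). Tbc1d1 stayed past the threshold with each library left out (edgeR adjusted p from 0.00559 to 0.0475). It overlaps Gm15823, Gm15824 and Gm6044, pseudogenes that are also in the count table.

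**Figure D5:**
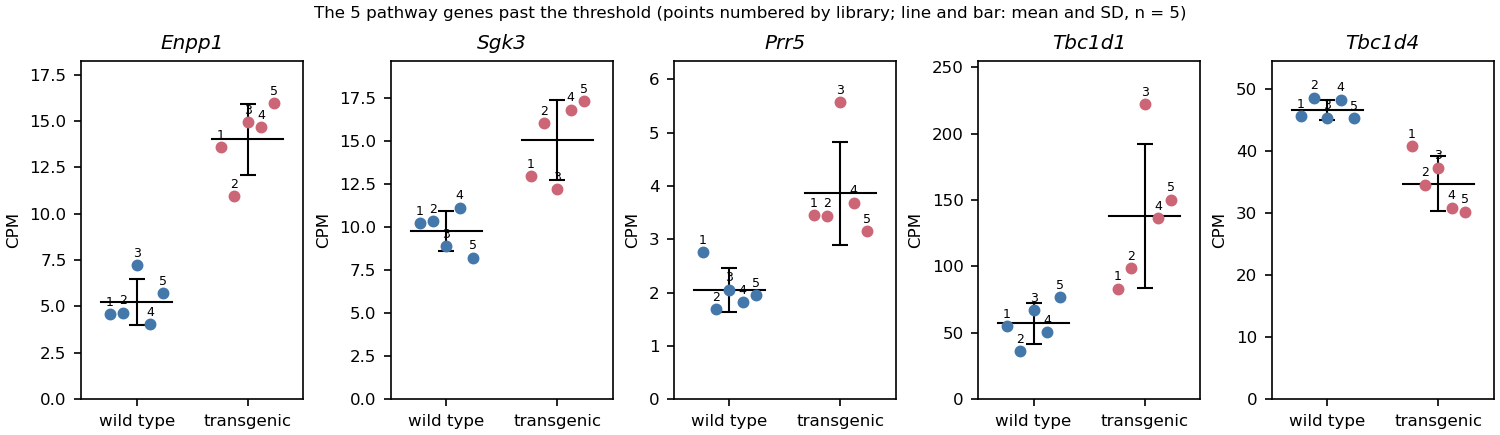
CPM by library of the 5 pathway genes past the threshold, with wild type in blue and transgenic in red; points are numbered by library, and the line and bar give the mean and SD of 5 libraries. The groups do not overlap in any of the 5 panels, whose genes were picked by their test on these same libraries. Over the 7 lists the groups did not overlap in 7 of 121 genes, beside 8.04% of all genes tested. Tbc1d1 and Prr5 are highest in transgenic library 3, at 222 and 5.57 CPM.

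In edgeR no gene passed in the other 3 lists with all libraries. Of 30 phosphatases and inhibitors, 4 had an unadjusted p under 0.05, where 18.1% of all genes tested did. Mapk8, the gene of the kinase JNK1, stood at a log2 fold change of -0.42 ± 0.11 and Ptpn6, the gene of the leukocyte phosphatase SHP-1, one of 1.44 ± 0.41 (SE; edgeR's adjusted p = 0.0547 and 0.0653). Ptpn6 had 6.45 and 6.10 CPM in transgenic libraries 1 and 2 and 1.42 to 2.28 CPM in transgenic libraries 3 to 5, beside 0.976 to 1.67 CPM in wild type. DESeq2 called 8 of the 121 genes, where it called 7.74% of all genes: the same 5 with Ptpn6, Mapk8 and Foxo4. Without transgenic library 3 edgeR called 10, where it called 8.24% of all genes: the same 5 with Pik3r2, Pik3r3, Ptpn6, Ppp2r1a and Mapk8.

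Of 26 FOXO target genes 20 had a log2 fold change under 0, with a median of -0.20 beside 0.003 over all genes. Of the 26, 5 had an unadjusted p under 0.05 in edgeR, where 18.1% of all genes tested did. The count under 0 was 18 to 21 with each library left out, and the median then ran from -0.28 to -0.14. These genes share their libraries, so their signs are not independent. The count was 10 with library totals in place of TMM, where the median was 0.07 beside 0.27 over all genes. Sesn3, a stress-induced sestrin, at 0.38 ± 0.12, and Fbxo21, a ubiquitin ligase subunit, at -0.41 ± 0.15 (SE; edgeR's adjusted p = 0.0948 and 0.148), had the smallest p. Fbxo32, the muscle ubiquitin ligase atrogin-1, had group means of 1651 and 1139 CPM and differed by -0.54 ± 0.25 on the log2 scale (SE; edgeR's adjusted p = 0.280). Wild-type libraries 2 and 5 had 2515 and 2151 CPM of it. The other wild-type libraries had 915 to 1381 CPM and the transgenic ones 801 to 1355 CPM. None of the 10 insulin-induced genes had an unadjusted p under 0.05; Myc and Egr1 came closest, with log2 fold changes of -0.35 ± 0.16 and 0.54 ± 0.26 (SE; edgeR's adjusted p = 0.279 and 0.309). Hk2, the hexokinase that traps glucose in muscle, had group means of 125 and 134 CPM.

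Hepatocyte markers were higher in the transgenic group. Of 24 hepatocyte markers tested 20 rose, and their sum lay between 0.0228% and 0.0422% of all counts in wild type and between 0.0637% and 0.708% in the transgenic libraries, of which 5 was highest and 3 lowest. None of the 24 was at 0 in every library. Of 13 leukocyte markers tested 1 passed as higher, Cd74, which is 7.69% beside 4.28% of all genes. All 13 had a log2 fold change above 0, with a median of 0.59. An unadjusted p under 0.05 in edgeR was reached by 6 of them, where 18.1% of all genes tested reached it. All 18 of that list summed to between 0.0111% and 0.0194% in wild type and between 0.0151% and 0.0446% in the transgenic libraries, with libraries 1 and 2 highest. Fibroblast markers took 0.503% of the counts in transgenic library 3 and 0.241% to 0.468% in the other 9 libraries. None of the adipocyte, endothelial, fibroblast or nerve markers passed the test.

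With the mean of the hepatocyte markers as a covariate none of the 9 proximal genes passed. Insr, at -0.41 ± 0.19 (SE; edgeR's adjusted p = 0.396), was the only one at an unadjusted p under 0.05 there. Akt1 stood at 0.43 ± 0.20 and Ptpn1 at 0.57 ± 0.27 (SE; edgeR's adjusted p = 0.402 and 0.415). Over all genes 70 passed in that fit, 0.525%, in place of 711, and the covariate differs between the groups, so each SE grew. All 5 pathway genes called with all libraries lost their call there. Enpp1 stood at a log2 difference of 1.27 ± 0.27 (SE; edgeR's adjusted p = 0.0637), Prr5 at 1.28 ± 0.32 and Tbc1d1 at 1.19 ± 0.42, Sgk3 at 0.32 ± 0.21 and Tbc1d4 at -0.16 ± 0.17 (SE). Their edgeR adjusted p was 0.115 for Prr5, 0.270 for Tbc1d1, 0.547 for Sgk3 and 0.700 for Tbc1d4. Ptpn6 passed (2.73 ± 0.53, SE; edgeR's adjusted p = 0.0423). The part of leukocyte and fibroblast transcripts in these values was not tested.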

How the data were processed

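RNA-seq reads of biceps femoris were counted per gene by the authors. The submitters' processing notes name HTSeq 0.6.1, TopHat2 2.1, SAMtools 1.2, DESeq2 1.10 and Bowtie2 2.2.6, with GRCm38.p4 as the build. No source used here gives the strand setting, so overlapping genes may share reads. The deposited table holds raw counts for 10 libraries. It also holds the authors' mean signal, log2 fold change with its SE, Wald score and p-values, per the file headers. Libraries were grouped by column name, and none of 20 pairs within a group agreed within sampling noise (chi-square per degree of freedom at least 17.5).

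After filterByExpr and TMM scaling, the test was edgeR 4.0.16 in R 4.3.3 (glmQLFit, glmQLFTest; no covariate; Benjamini-Hochberg over 13338 genes). SEs come from the fold change and F statistic, and a prior count of 2 entered log2 CPM. Alternatives were DESeq2 1.42.0, limma 3.58.1, other scalings and filters, a covariate and libraries left out. Pair relations used 100000 permutations. The procedure was tested on simulated data. Positions come from GENCODE M21 (GRCm38), matched by ID for 99.7% of genes, and promoters from RefSeq.

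Named beside the 9 genes were Zfp407, every pathway gene past the threshold or, in lists with none, the 2 with the smallest p, and the 3 genes with the most similar pattern. Other genes given as group means or beside these were chosen after their values were seen. The 9 genes, the lists and the tests were chosen with earlier results of these data known.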

Additional observations from a re-analysis of the deposited data

Results flagged for a closer look

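In 3 of 24 sets of 5 libraries examined (9 genes and 3 ratios in 2 groups), 1 library lay farther from its neighbour than Dixon's 95% limit for 5 samples allows. About 1 set in 20 does so by chance, but the sets of a group share their libraries and are not independent. In all 3 sets past the limit the library was transgenic library 3: Akt2 at 202 CPM (gap 0.732 of the range), Pik3ca at 52.3 CPM (0.934) and Irs1 at 57.6 CPM (0.795). For Irs1 that value is close to wild-type libraries 4 and 5, at 57.5 and 56.8 CPM. Over all genes tested, transgenic library 3 held the highest or lowest value of the 10 libraries in 51.7%. No share of all genes past Dixon's limit is given here, so whether these 3 sets stand out from other genes was not tested.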

How the results depend on the processing

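No paired analysis was possible because the library columns carry no mouse number and the labels share none between groups. None of the 9 genes was called under any setting run, except 2 (Pdpk1 and Ptpn1) with library totals only, where 15.1% of all genes were called, 97.9% of those as higher. Of 108 values of the 9 genes under settings other than leaving out 1 library, 93 kept direction and side and 13 changed sign, each of a gene that was not called. With library totals, where the median of all genes was 0.27, these were Insr (0.0909), Irs1 (0.23), Irs2 (0.18), Pik3r1 (0.21) and Pik3ca (0.0137). With limma-voom they were Pik3r1 (0.0338), Akt1 (-0.0524) and Akt2 (-0.11), and with the hepatocyte covariate Irs1 (0.0749), Irs2 (0.0673) and Pdpk1 (-0.0352). Irs1 was at 0.044 without transgenic libraries 4 and 5 and at 0.00711 without libraries 1 and 2. With 1 library left out, values ran from -0.0571 to 0.13 for Akt1, -0.17 to 0.13 for Akt2, -0.11 to 0.043 for Irs1, -0.27 to 0.12 for Irs2, 0.0045 to 0.11 for Pdpk1 and -0.18 to 0.0465 for Pik3r1. The difference in the log2 ratio ran from -0.29 to 0.21 for Irs2 to Irs1, -0.12 to 0.0396 for Akt2 to Akt1 and 0.10 to 0.24 for Pik3r1 to Pik3ca. Of the 121 pathway genes 5 were called with all libraries, 2 without wild-type library 3 (3.33% of all genes called) to 10 without transgenic library 3 (8.24%), 3 without wild-type library 2 (3.86%) or 4 (3.76%), 8 with DESeq2 (7.74%) and 1 with the covariate (0.525%), where each SE grew. The other causes were not tested.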
